A study of Mus musculus with 37 samples.

Results

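The genes described here are Myc, its target Odc1 and 34 factors that build ribosomes, 36 genes in all of the 55487 in the deposited table. They were taken by symbol from a fixed list, which was chosen with earlier results of these data known. All 36 were found and passed the filter on low counts, which left 15564 genes to test. Their mRNA was measured by RNA sequencing of whole mouse liver in 37 libraries that form 10 groups. Wild-type (WT) mice are compared with NOX4-/- mice (knockout, KO), which lack the hydrogen peroxide-producing NADPH oxidase Nox4. Livers came either from sham-operated mice or from mice sampled 6 h, 24 h, 48 h or 7 d after partial hepatectomy, the removal of part of the liver, and the question behind the design is how Nox4 loss bears on regrowth. WT mice gave 5 sham livers and 3, 3, 4 and 3 livers at the successive times, and KO mice gave 5 sham livers and 3, 4, 4 and 3. The sham groups mix collection times: WT replicates 1 to 5 were collected 7 d, 48 h, 24 h, 48 h and 6 h after sham surgery, and KO replicates 1 to 5 after 24 h, 48 h, 48 h, 72 h and 6 h. Replicate numbers here only name livers within a group, in the order of the sample records, and pair none. Each sham group therefore holds a single 6 h liver, replicate 5. Both sexes are present except at 6 h after hepatectomy, where all 6 livers are male. Both 6 h sham livers are male too. Of the other sham livers, WT replicates 2 to 4 and KO replicates 2 and 3 are female and the rest male. Strain, age and the deleted exons of Nox4 are not given in the sources used here.

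Myc is a transcription factor that pairs with Max on the E-box CACGTG and drives the genes of cell growth. Among its best known targets are Odc1, the rate-limiting enzyme of polyamine synthesis, and the machinery that transcribes ribosomal RNA, modifies it with small nucleolar ribonucleoproteins (snoRNPs), and folds and cuts it into the small and large ribosomal subunits. In the regenerating liver, Myc and ribosome production are classically among the first growth responses of hepatocytes.

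The E-box is shown first, since it is the sequence that Myc is known to bind. RefSeq windows of 300 bases on GRCm38.p6, from 250 bases before the start site to 50 after it, were matched by symbol for 30 of the 36 genes, and Rrs1, Bop1, Myc, Npm1, Rrp12 and Fbl had no entry. CACGTG, which reads the same on both strands, was present in the windows of 6 of the 30 genes (20.0%), against 8.09% of all 27025 genes with a window and 11.3% of the 11304 that were also tested here. The binomial 95% interval of the 20.0% ran from 7.71% to 38.6%, which includes both of those shares. In 5 of these genes the match lay after the start site. The stretches below hold it in capitals, with up to 12 bases to each side, for Mybbp1a (chr11:72441355-72441376, plus strand), Pes1 (chr11:3963965-3963994, plus strand), Tsr1 (chr11:74898092-74898121, plus strand), Wdr43 (chr17:71616220-71616249, plus strand) and Utp20 (chr10:88826765-88826789, minus strand).
Mybbp1a: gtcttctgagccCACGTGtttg
Pes1: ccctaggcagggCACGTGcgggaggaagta
Tsr1: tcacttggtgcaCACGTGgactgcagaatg
Wdr43: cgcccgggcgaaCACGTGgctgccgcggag
Utp20: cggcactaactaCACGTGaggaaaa
In Nop2 the match began 60 bases before the start, and the 250 bases before its start site (chr6:125131633-125131882, plus strand) are printed with the match in capitals. The same stretch of Gar1 (chr3:129831397-129831646, minus strand), the gene with the smallest p of the 36 between the genotypes at 24 h, holds no match and is printed for contrast.
Nop2: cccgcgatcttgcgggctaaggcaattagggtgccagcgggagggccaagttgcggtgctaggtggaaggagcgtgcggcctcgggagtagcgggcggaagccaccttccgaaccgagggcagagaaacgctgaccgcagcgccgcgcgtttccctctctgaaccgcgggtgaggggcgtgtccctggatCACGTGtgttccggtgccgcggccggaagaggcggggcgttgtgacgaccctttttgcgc
Gar1: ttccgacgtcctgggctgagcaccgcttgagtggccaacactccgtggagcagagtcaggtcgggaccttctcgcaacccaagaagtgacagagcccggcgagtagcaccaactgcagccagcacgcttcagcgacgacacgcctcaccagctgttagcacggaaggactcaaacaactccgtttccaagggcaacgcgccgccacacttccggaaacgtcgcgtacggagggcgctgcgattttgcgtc
Counting only the bases before the start, the motif was found in 3.33% of the 30 genes (95% interval 0.08% to 17.2%). It was found there in 6.86% of all genes with a window and in 9.5% of those also tested here. All 6 genes with the motif and 18 of the 24 without it were higher in KO than in WT livers at 24 h, as given below, where 11.1% of all genes were. Of the 6 calls, those of Mybbp1a and Pes1 held whichever library was left out. In 7 such fits, Wdr43 and Tsr1 were each lost in 5, Nop2 in 4 and Utp20 in 2. Whether the motif bears on the call was not tested. The letters were matched and no binding was measured.

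A feature that the list did not use is shared by 8 of the 36 genes: they carry small nucleolar RNA genes inside them on the same strand, 22 in all. Such host genes make up 22.2% of the 36 and 1.55% of the 13641 protein-coding genes tested. Nop56 holds 5, among them Snord110 and Snord57, Nop58 holds 4, and Ncl, Gnl3 and Wdr43 hold 3 each. Tsr1 holds 2 and Dkc1 and Odc1 1 each. The 36 genes lie on 17 chromosomes. On GRCm38 (GENCODE M21) Myc lies at chr15:61985391-61990374, Odc1 at chr12:17544794-17551505 and Heatr1 at chr13:12395027-12440289, all on the plus strand. Of them, 17 overlap a gene on the other strand, including Heatr1, Mybbp1a, Noc2l and Bop1. The library kit keeps strand but the strand setting of the counting is not given, so values of these 17 are less certain. Fbl has a named pseudogene that could share its reads. Pseudogenes were sought only by the gene's own symbol followed by -ps, so those under other names may be missed for any of the 36.

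Total counts per library ran from 26232544 to 48827025, and the smallest count of Myc in any library was 53. Nox4 followed the labels within each sex: male livers had 3.95 to 23.5 CPM (counts scaled to library size, with TMM factors) in WT (median 14.4, n = 11) and 0.325 to 4.98 in KO (median 2.35, n = 12). Female livers had 0.778 to 3.36 CPM in WT (median 1.29, n = 7) and 0 to 0.245 in KO (median 0.153, n = 7), so only the male ranges overlapped. Defining hepatocyte markers were present in every group. WT 24 h replicate 3 had the highest mitochondrial share, 8.93% of counts against 3.17% in WT 24 h replicate 1, and a TMM factor of 1.31. P-values measure the spread between these libraries, whose animals are not named. In whole liver, fewer cells of a type and less RNA per cell cannot be told apart.

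Per kilobase of exon, the highest mean levels over the 10 sham livers were those of Nop10 at 30.9 ± 8.03 CPM per kb, Npm1 at 21.5 ± 7.75, Odc1 at 19.5 ± 8.52 and Nhp2 at 16.6 ± 5.04 (SD, n = 10). Nop10 and Nhp2 are small core proteins of the H/ACA snoRNPs, which guide pseudouridylation, and Npm1 is the nucleolar chaperone nucleophosmin. The lowest were Rrp1b at 0.625 ± 0.464 and Utp20 at 0.892 ± 0.295 CPM per kb, and Myc stood at 1.6 ± 1.26. Nop10 stood above Npm1 by more than the SD of either, and from Npm1 down each mean differed from its neighbour by less than the larger SD of the pair.

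Across the whole set, the livers of the 6 h time point and 3 of the KO 24 h livers stood high. For each gene the log2 CPM was set against its mean over the 8 sham livers not taken at 6 h, and the median over the 36 genes was read in each liver. The 8 reference livers ranged from -0.28 to 0.25. The 6 h sham livers stood at 1.00 in WT and 1.04 in KO, and the livers taken 6 h after hepatectomy at 1.26, 1.00 and 1.15 in WT and 0.89, 0.99 and 0.54 in KO. These 8 livers of the 6 h time point all lay above every other sham liver. At 24 h the WT livers stood at -0.04, 0.26 and -0.19, and KO replicates 1 to 4 at 0.35, 1.53, 1.33 and 1.67. At 48 h the range was 0.30 to 0.54 in WT and -0.11 to 0.32 in KO, and at 7 d it was 0.11 to 0.41 in WT and 0.07 to 0.29 in KO. The median over all tested genes stayed between -0.06 and 0.10 in every liver.

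**Figure D1:**
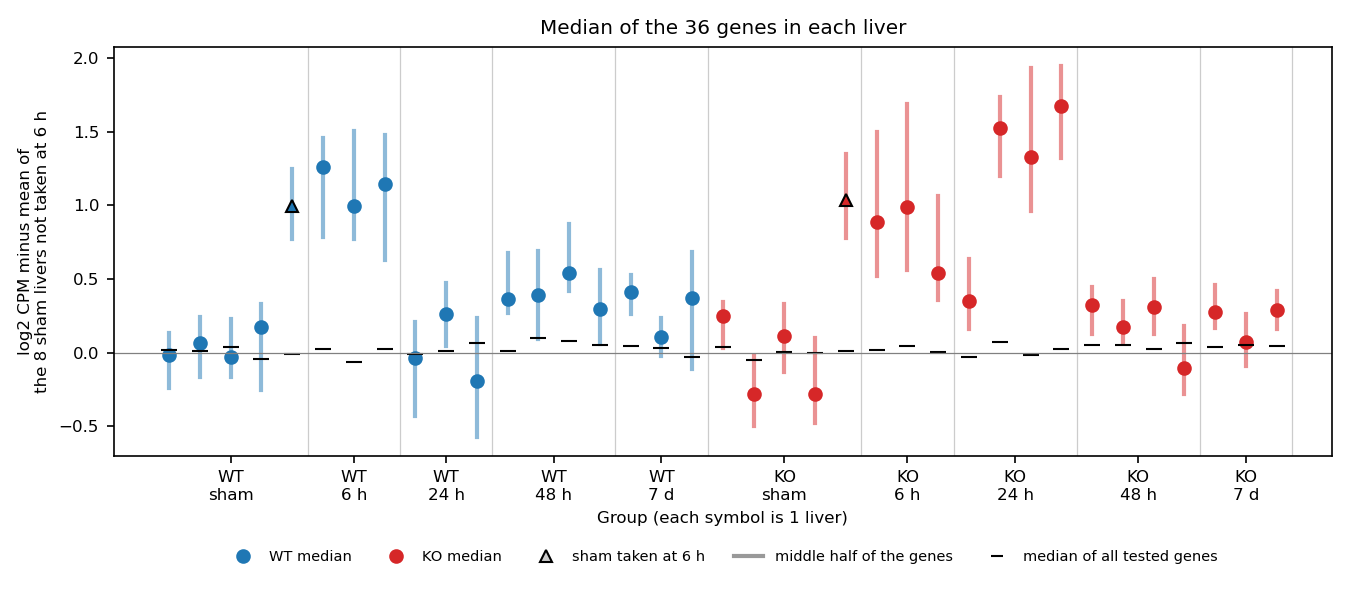
Each symbol is 1 liver: the median over the 36 genes of log2 CPM minus the mean of the 8 sham livers not taken at 6 h (vertical axis, log2), with a bar from the lower to the upper quartile of the genes and a dash for the median of all tested genes; groups run along the horizontal axis. The triangles, sham livers taken at 6 h, stand at 1.00 and 1.04 beside the 6 h hepatectomy livers, and KO 24 h replicates 2 to 4 stand between 1.33 and 1.67 while replicate 1 stands at 0.35.

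**Figure D2:**
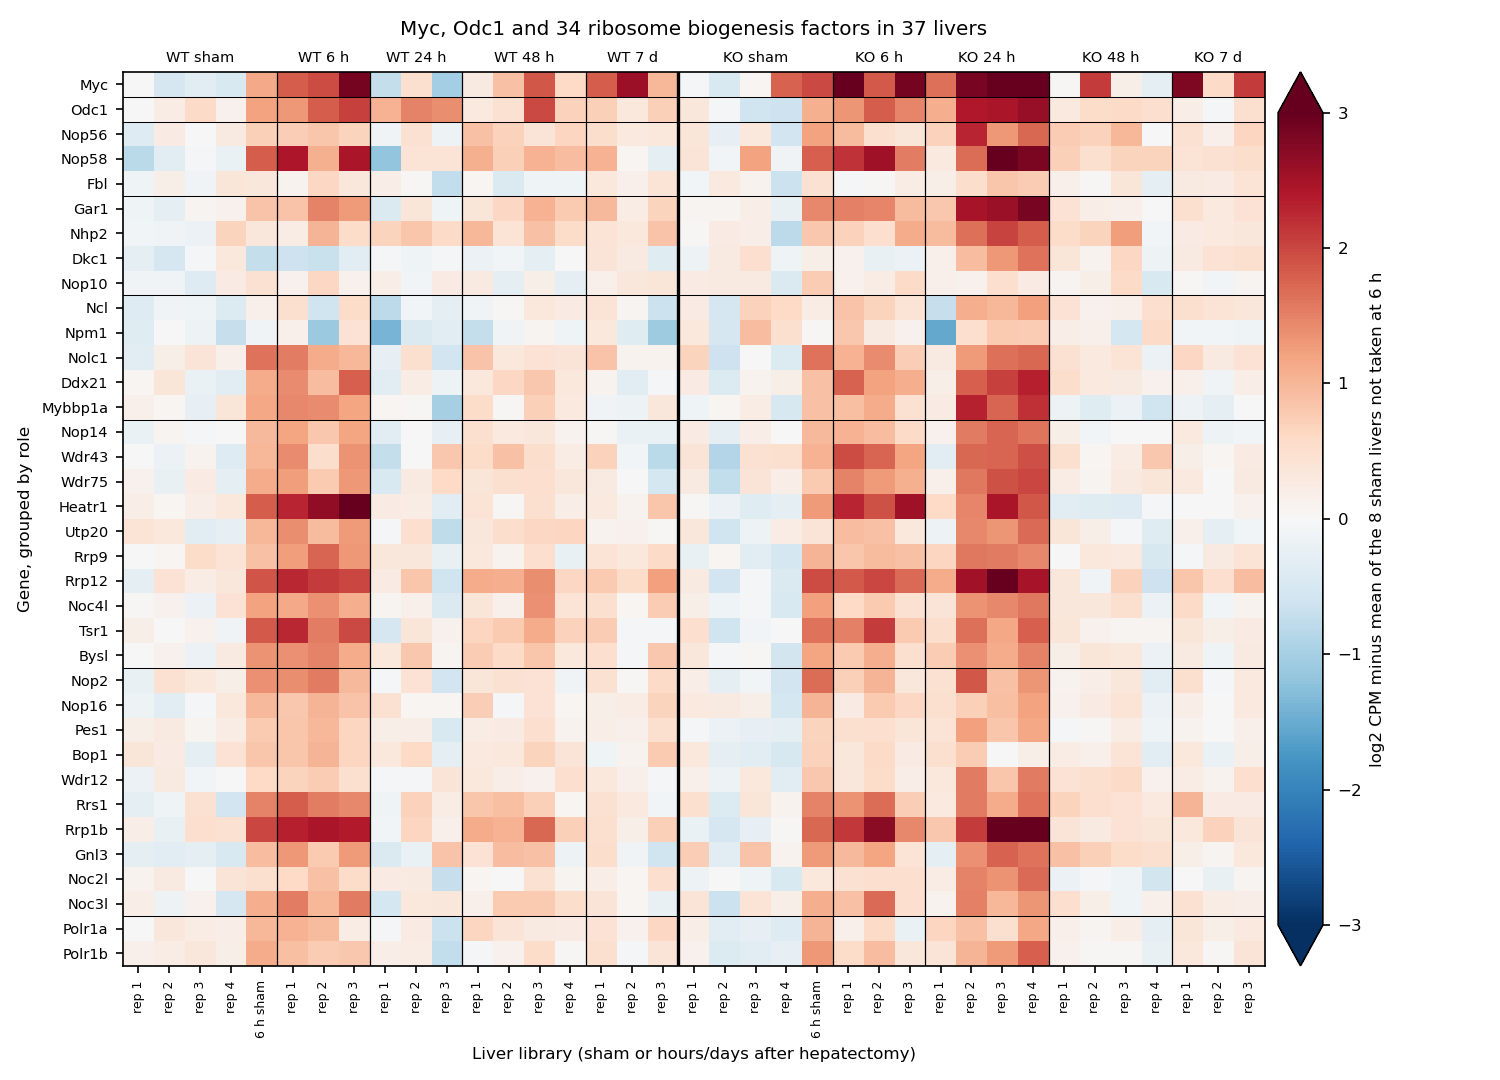
Colour gives log2 CPM minus the mean of the 8 sham livers not taken at 6 h, for each of the 36 genes (rows, grouped by role) in each of the 37 livers (columns, by group), with the scale ending at -3 and 3. Red columns are the 6 h sham livers, the 6 h hepatectomy livers and KO 24 h replicates 2 to 4.

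At 6 h after hepatectomy, Odc1 and a few ribosome factors were higher than in the pooled sham livers in both genotypes, and Myc passed the test in WT. In WT livers 5 of the 36 genes rose and none fell, where 4.16% of all genes rose: Heatr1, Rrp9, Odc1, Myc and Ddx21. In KO livers 4 rose and none fell, where 4.11% of all genes rose: Heatr1, Odc1, Rrp1b and Ddx21. The log2 difference was above 0 in 35 of the 36 genes in WT (median 0.73, all genes 0.02) and in 33 in KO (median 0.53, all genes 0.00).

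Myc stood at 2.76, 1.93, 2.23, 2.001 and 6.21 CPM in WT sham replicates 1 to 5, and at 9.92, 11.0 and 20.9 CPM in the WT 6 h livers. The ranges did not overlap, and the highest sham value was that of the 6 h sham liver. In KO it was 2.66, 2.02, 2.92, 9.62 and 11.1 CPM in sham livers and 37.8, 10.2 and 20.6 CPM at 6 h, which overlapped through the 6 h sham liver. The log2 difference was 1.957 (SE 0.62, edgeR quasi-likelihood adjusted p = 0.0482) in WT, past the threshold of 0.05, and 1.90 (SE 0.60, adjusted p = 0.0506) in KO, just short of it. Odc1 stood at 52.5, 60.5, 77.5, 56.8 and 121 CPM in WT sham livers and 129, 184 and 215 CPM at 6 h. KO sham livers had 65.6, 51.2, 34.7, 33.97 and 110 CPM of Odc1 and KO 6 h livers 131, 185 and 144 CPM. All 6 h hepatectomy livers thus lay above all sham livers of their genotype for Odc1, by log2 1.22 in WT (SE 0.37, edgeR adjusted p = 0.0414) and 1.36 in KO (SE 0.36, adjusted p = 0.0217).

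Heatr1, a scaffold protein of the small subunit processome, had the smallest p of the 36 at 6 h in both genotypes. Its levels were 14.6, 13.2, 14.7, 15.9 and 45.2 CPM in WT sham livers and 61.8, 80.2 and 112 CPM in WT 6 h livers. KO sham livers had 12.9, 11.3, 9.79, 10.6 and 31.1 CPM and KO 6 h livers 62.1, 48.1 and 74.6 CPM. The sham livers taken at 6 h lay between the other sham livers and the hepatectomy livers. Heatr1 rose by log2 1.87 in WT (SE 0.36, edgeR adjusted p = 0.00303) and 1.92 in KO (SE 0.36, adjusted p = 0.00138). The KO rise was the only 1 of the 9 rises at 6 h that passed whichever library was left out. Rrp9, a protein of the U3 snoRNP, rose in WT by 0.96 (SE 0.29, edgeR adjusted p = 0.037). Ddx21, a nucleolar RNA helicase, rose by 1.04 in WT (SE 0.33, edgeR adjusted p = 0.0489) and 1.08 in KO (SE 0.33, adjusted p = 0.0414), and Rrp1b, a pre-60S factor, by 1.72 in KO (SE 0.47, adjusted p = 0.0242). By role, 2 of 10 small subunit factors and 0 of 10 large subunit factors rose in WT, and 1 of 10 of each in KO.

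These counts turned on which sham livers served as controls. With the 6 h sham livers left out, 24 of the 36 genes rose in WT and 19 in KO. The share of all genes called is not given here for fits with livers left out. Such counts therefore do not tell whether a shift is particular to the 36. Against the 6 h sham liver of the same genotype alone, edgeR called 0 of the 36 in WT and in KO, with 1 and 3 genes at an unadjusted p under 0.05. That single liver was assumed to vary like the other groups, and the comparison called 0% of all genes in WT and 0.00643% in KO, so it says nothing about the 36; DESeq2 was not run on it. Single libraries moved them too. In WT, 1 gene rose without any 1 of sham replicates 1 to 4 or 6 h replicate 1, 3 without 6 h replicate 2, 0 without 6 h replicate 3 and 21 without sham replicate 5. In KO, 1 or 2 rose without any 1 library other than sham replicate 5, and 11 without that one.

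Sham livers taken at 6 h already held high levels of most of these genes. This comparison was chosen after the data were seen. Against the 8 other sham livers, 18 of the 36 genes were higher in the 2 sham livers taken at 6 h (1 per genotype) and none lower, where 3.73% of all genes were higher. The median log2 difference was 0.98, and in 28 genes both 6 h sham livers lay above all 8 others, a separation seen upward in 12.3% of all genes. Both 6 h sham livers are male and the 8 others of both sexes. These ranges, like the medians of each liver above, are not adjusted for sex. Tsr1, a late 40S assembly factor, led the list. It stood at 31.2 CPM in the WT and 26.9 CPM in the KO 6 h sham liver, against 7.97 to 9.71 CPM in the other WT and 5.70 to 12.3 CPM in the other KO sham livers (log2 1.73, SE 0.29, edgeR adjusted p = 0.000659). Rrp12, which helps export the 40S precursor, was higher by 1.87 (SE 0.34, edgeR adjusted p = 0.00156), and Bysl, a 40S maturation factor, by 1.27 (SE 0.24, adjusted p = 0.00166). Nop2, an rRNA methyltransferase of the 60S pathway, was higher by 1.52 (SE 0.28, edgeR adjusted p = 0.00171). Rrp1b was higher by 1.92 (SE 0.36, adjusted p = 0.00183), and Heatr1 by 1.497 (SE 0.27, adjusted p = 0.00145). The call included 7 of 10 small subunit factors, 5 of 10 large subunit factors and both RNA polymerase I subunits, Polr1a and Polr1b.

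Odc1 was among the genes higher in the 6 h sham livers (log2 1.18, SE 0.34, edgeR adjusted p = 0.0346). Myc was not called there, at 1.24 (SE 0.63, adjusted p = 0.269), and KO sham replicate 4, taken at 72 h, had 9.62 CPM of it. Npm1, Ncl and Dkc1 stood at 0.03, 0.20 and -0.24 and were not called. Dkc1 is dyskerin, the pseudouridine synthase of the H/ACA snoRNPs, and Ncl is nucleolin.

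Against these 2 sham livers, the 6 livers taken 6 h after hepatectomy differed in 0 of the 36 genes by edgeR, where 0.141% of all genes changed, with 2 genes at an unadjusted p under 0.05; DESeq2 was not run. The median log2 difference was 0.04. Over all genes, 6.59% had all 6 hepatectomy livers above both 6 h sham livers, and 6.37% had all 6 below. The 36 were near those shares: Odc1 and Heatr1 were the only 2 genes wholly above, and Nolc1 and Polr1b the only 2 wholly below. Their differences were 0.51 for Odc1 (SE 0.36, edgeR adjusted p = 0.67) and 0.95 for Heatr1 (SE 0.31, adjusted p = 0.178), and that of Myc was 1.10 (SE 0.70, adjusted p = 0.617). Polr1a and Polr1b stood at -0.51 (SE 0.24, adjusted p = 0.414) and -0.48 (SE 0.26, adjusted p = 0.503). With 2 control livers these intervals are wide, and both comparisons share those 2 livers. Cell type markers moved in these comparisons as well. The summed neutrophil level was 31.7 to 79.7 CPM in WT 6 h against 2.7 to 12.6 CPM in WT sham livers, and 13.6 to 29.7 CPM in KO 6 h against 3.4 to 10.3 CPM in KO sham livers. Of 8 tested neutrophil markers 5 rose in WT at 6 h and 0 were called in KO by edgeR, with 5 at an unadjusted p under 0.05. In the 6 h sham livers against the other sham livers, the neutrophil markers Mmp8 (3.48, SE 0.96, edgeR adjusted p = 0.028) and Cxcr2 (2.58, SE 0.77, adjusted p = 0.0432) were higher, 2 of 8 tested. There the summed neutrophil level was 12.6 CPM in WT and 10.3 CPM in KO, against 2.7 to 8.8 CPM in the 8 others. The B cell marker Cd79a was lower (-3.48, SE 0.94, adjusted p = 0.0259), 1 of 5, and the hepatocyte factor Hnf4a higher (0.97, SE 0.25, adjusted p = 0.017), 1 of 10. The part of these cells in the 6 h results was not tested.

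**Figure D3:**
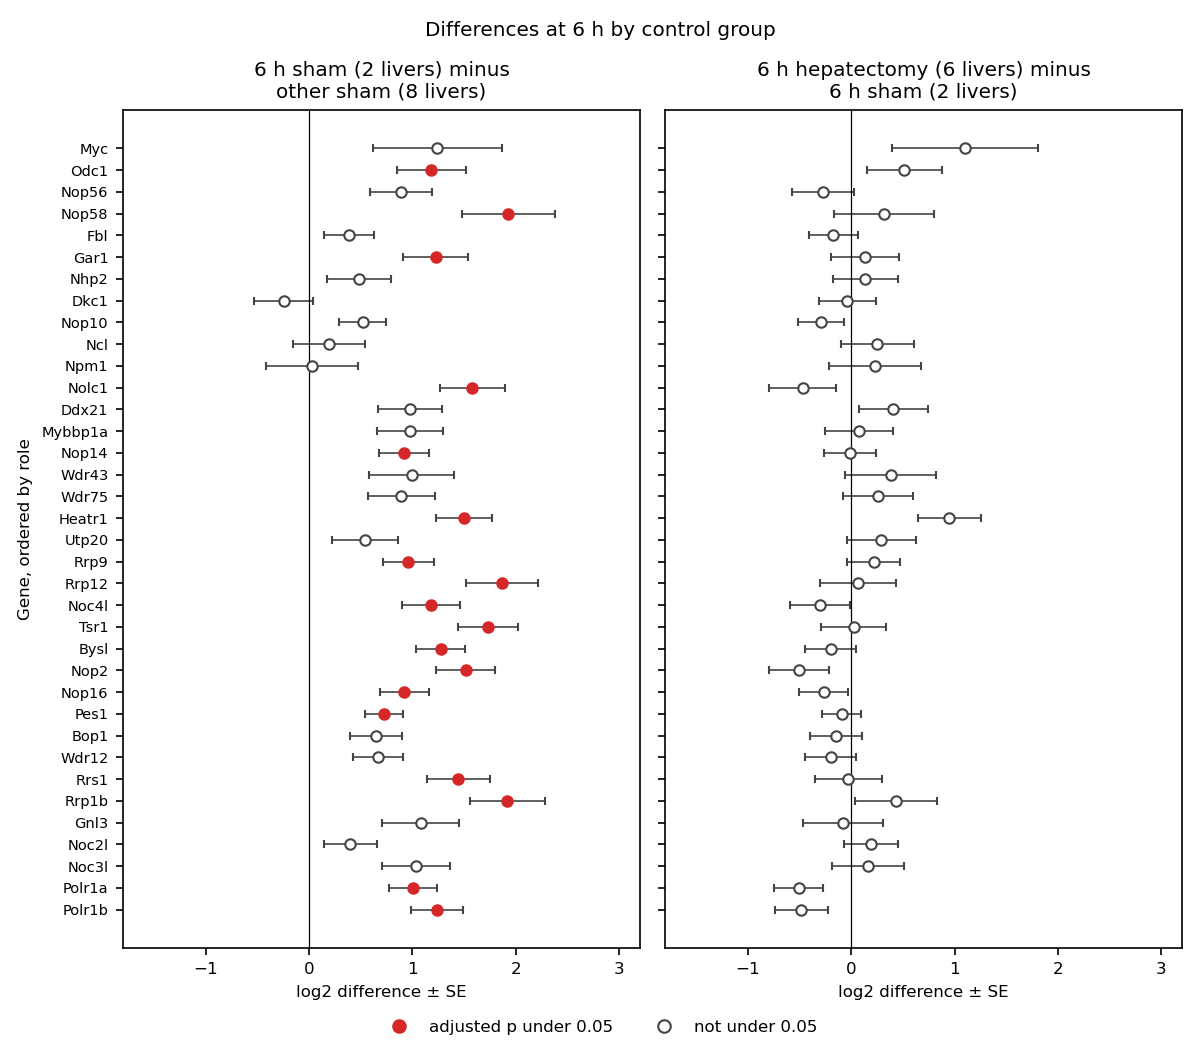
Log2 difference with its SE (horizontal axis) for the 36 genes, ordered by role; red points have an adjusted p under 0.05. On the left, 2 sham livers taken at 6 h against 8 other sham livers, 18 genes are called higher; on the right, 6 hepatectomy livers against the 2 sham livers at 6 h, no gene is called and the points scatter around 0.

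At 24 h the genotypes differed. In WT livers none of the 36 genes changed from sham by edgeR, where 0.925% of all genes changed, with 1 gene at an unadjusted p under 0.05 and 0 called by DESeq2. Their median log2 difference was -0.27, with 5 genes above 0. That 1 gene was Odc1, at 107, 147 and 136 CPM in the WT 24 h livers, 0.81 above sham (SE 0.36, edgeR adjusted p = 0.272). Mybbp1a (-0.62, SE 0.33, adjusted p = 0.376) and Polr1a (-0.51, SE 0.28, adjusted p = 0.387) followed it. In KO livers 25 of the 36 genes rose and none fell, where 15.9% of all genes rose, and all 36 had a difference above 0 (median 1.00). In 2 of the 36, Odc1 and Nhp2, every KO 24 h liver lay above every KO sham liver, which 4.59% of all genes did. Between the genotypes at 24 h, 27 of the 36 were higher in KO and none lower, where 11.1% of all genes were higher. Again all 36 were above 0, with a median of 1.23 against -0.03 over all genes. In 18 genes the lowest KO liver lay above the highest WT liver, which 6.14% of all genes did. Both comparisons share the KO 24 h livers, so the counts are not separate observations.

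Myc was 3.32 higher in KO than in WT livers at 24 h on the log2 scale (SE 0.72, edgeR adjusted p = 0.00384). It stood at 1.66, 3.89 and 1.35 CPM in the WT and 8.82, 20.6, 37.4 and 29.7 CPM in the KO livers, with no overlap. Against KO sham it rose by 2.21 (SE 0.57, edgeR adjusted p = 0.00492), although KO sham replicates 4 and 5 reached 9.62 and 11.1 CPM. Odc1 stood at 111, 277, 285 and 319 CPM in KO 24 h livers. Replicates 2 to 4 exceeded every other liver in the series, and replicate 1 lay among the WT 24 h livers. Odc1 rose over KO sham by 2.08 (SE 0.34, edgeR adjusted p = 0.000102), and its difference from WT at 24 h was 0.93 (SE 0.39, adjusted p = 0.0895), not past the threshold.

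The mRNAs of the snoRNP proteins were higher in KO than WT livers at 24 h, with 1 exception. The calls of Nop56, Gar1 and Dkc1 held whichever library was left out. In 7 such fits, Nhp2 was lost in 5, Fbl in 4 and Nop58 in 2. Of the box C/D core, which guides 2'-O-methylation of RNA, Nop56, Nop58 and the methyltransferase Fbl were all higher in KO than WT livers at 24 h, by 1.52 (SE 0.34), 2.29 (SE 0.60) and 0.72 (SE 0.23), with edgeR adjusted p of 0.00405, 0.0112 and 0.0301. Of the H/ACA core, Gar1, Nhp2 and Dkc1 were higher and Nop10 was not called (0.17, SE 0.23, edgeR adjusted p = 0.623). Gar1 stood at 1.82, 3.17 and 2.24 CPM in WT and 4.36, 14.0, 15.1 and 18.2 CPM in KO livers. It did not overlap, and its difference of 2.42 (SE 0.40, edgeR adjusted p = 0.000878) had the smallest p of the 36. Nhp2 stood at 26.6, 30.1 and 25 CPM in WT and 32.3, 53.4, 68.8 and 59.4 CPM in KO livers, and it rose over KO sham by 1.49 (SE 0.26, edgeR adjusted p = 0.000195) without overlap. Nop10 stayed at 28.9 to 36.2 CPM in WT and 33.2 to 43.6 CPM in KO livers, although it works in the same particle.

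Among the nucleolar organisers, Ncl, Nolc1, Ddx21 and Mybbp1a were higher in KO than WT livers, and Npm1 was not called (1.02, SE 0.41, edgeR adjusted p = 0.0764). Mybbp1a, a nucleolar protein that binds Myb, stood at 38.1, 37.7 and 18.4 CPM in WT and 43.4, 182, 124 and 167 CPM in KO livers, a difference of 2.04 (SE 0.37, adjusted p = 0.00117). Ddx21 stood at 16.3, 24.3 and 18.7 CPM in WT and 23.5, 72.4, 85.8 and 105 CPM in KO livers. Its KO replicate 1 lay inside the WT range, and the difference was 1.86 (SE 0.36, edgeR adjusted p = 0.00192). Npm1 stood at 18.8 CPM in KO replicate 1, below all WT 24 h livers, and at 77.8 to 94.7 CPM in the other 3.

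Of 10 small subunit factors 9 were higher in KO than WT livers at 24 h, the exception being Bysl (0.79, SE 0.32, edgeR adjusted p = 0.0833). The differences of the 9 ran from 1.19 in Rrp9 to 2.11 in Rrp12. Nop14, which holds the processome together, stood at 8.69, 10.8 and 9.05 CPM in WT and 11.8, 32.0, 36.3 and 32.9 CPM in KO livers (1.57, SE 0.29, edgeR adjusted p = 0.00139). Its ranges did not overlap, by a narrow margin at KO replicate 1. Heatr1 stood at 15.0, 14.8 and 10.1 CPM in WT and 19.2, 35.3, 70.1 and 46.6 CPM in KO livers, a difference of 1.69 (SE 0.39, edgeR adjusted p = 0.00548). All 4 KO livers lay above every sham liver not taken at 6 h.

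Of 10 large subunit factors 5 were higher in KO than WT livers: Nop2, Pes1, Wdr12, Rrp1b and Noc2l. Noc2l, part of the complex that moves pre-60S particles, stood at 29.1, 29.4 and 15.1 CPM in WT and 28.8, 69.3, 62.5 and 80.2 CPM in KO livers. KO replicate 1 lay within the WT range. The difference was 1.298 (SE 0.25, edgeR adjusted p = 0.00198), and the rise over KO sham, 1.36 (SE 0.22, adjusted p = 7.23e-05), had the smallest p of the 36 in that comparison. Rrp1b was higher by 2.41 (SE 0.54, adjusted p = 0.00438) and rose over KO sham by 2.31 (SE 0.45, adjusted p = 0.000465). Pes1, Bop1 and Wdr12 form one complex of the 60S pathway, and they differed: Pes1 by 0.96 (SE 0.22) and Wdr12 by 1.08 (SE 0.26), both called, and Bop1 by 0.15 (SE 0.26, edgeR adjusted p = 0.726). Nop16, Rrs1, Gnl3 and Noc3l stood at 0.69, 0.94, 1.14 and 0.99 and were not called. Polr1a and Polr1b, the core subunits of RNA polymerase I, were higher by 0.94 (SE 0.29, adjusted p = 0.0268) and 1.27 (SE 0.35, adjusted p = 0.0134).

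**Figure D4:**
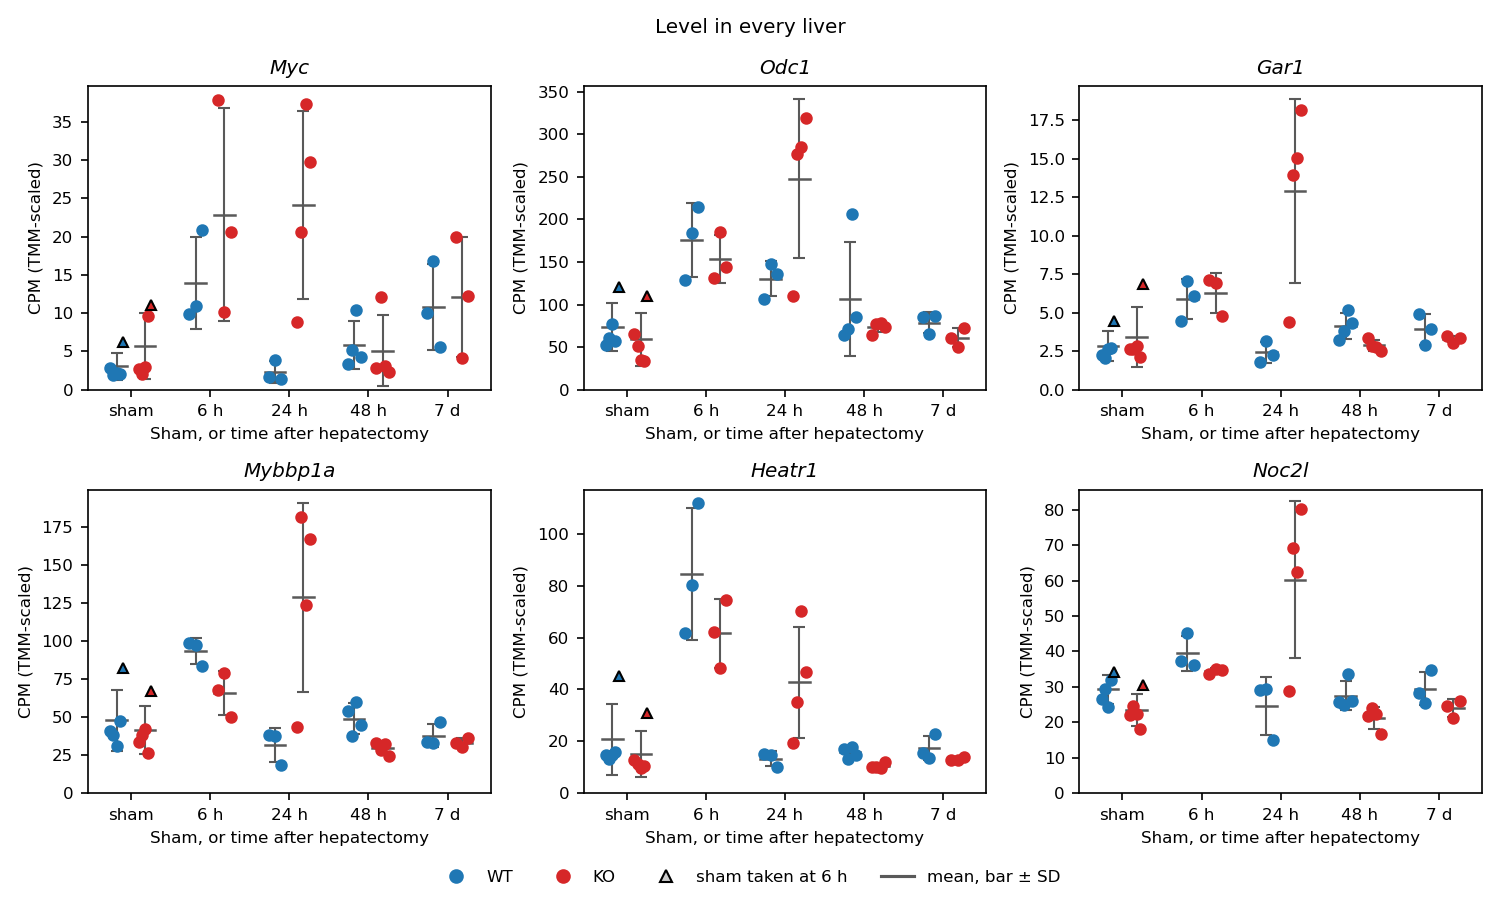
TMM-scaled CPM (vertical axis) of 6 of the genes by sham or time after hepatectomy (horizontal axis), 1 point per liver, WT in blue and KO in red, with mean and SD; triangles are sham livers taken at 6 h. At 24 h, KO replicates 2 to 4 of Gar1 (14.0 to 18.2 CPM) and Mybbp1a (124 to 182 CPM) lie above all other livers of the panel.

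**Figure D5:**
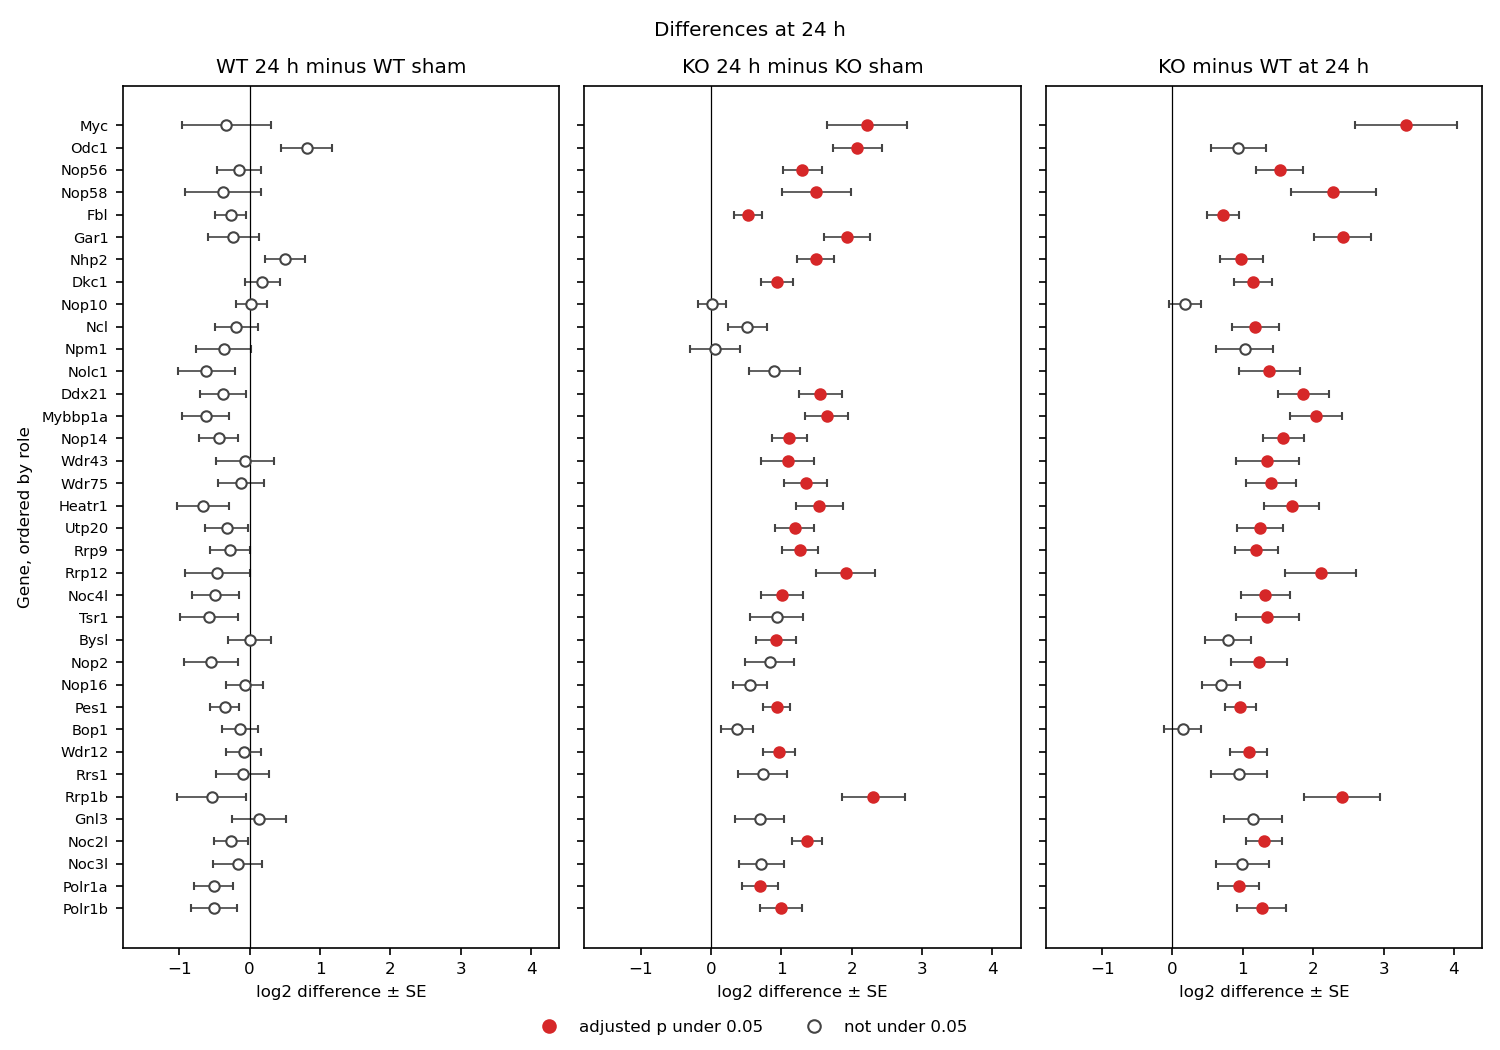
Log2 difference with its SE (horizontal axis) for the 36 genes, ordered by role, in 3 comparisons at 24 h; red points have an adjusted p under 0.05. No gene is called in WT against sham, 25 in KO against sham and 27 in KO against WT.

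The KO rise at 24 h was carried by 3 of the 4 livers. KO replicate 1 was the lowest of its group in 33 of the 36 genes, the exceptions being Nop10, Bop1 and Polr1a. Such ranks within a group, here and below, were read over the 36 genes alone. They do not tell whether a liver's rank is particular to the 36. KO replicates 2 to 4 all lay above the highest WT 24 h liver in 34 genes, and replicate 1 did not in 18. The share of all genes with that separation is not given here. These 3 livers were told apart by their levels of the same 36 genes, so the 34 is partly set by that choice. Replicates 1 and 4 are female and 2 and 3 male. Without replicate 1, 34 of the 36 genes were called between the genotypes and 33 against KO sham. Without replicate 4, 14 were called between the genotypes and 18 against KO sham. The share of all genes called in these refits is not given here. Of the 27 genotype calls, 13 held whichever library was left out, Myc, Gar1, Mybbp1a, Nop14, Ddx21 and Noc2l among them, and of the 25 calls against KO sham 18 held. A fit of the 2 groups alone called 0 genes between the genotypes at 24 h, among the 36 and in the whole table.

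The genotype by hepatectomy interaction asks whether the change from sham differs between the genotypes. At 24 h it was called in 17 of the 36 genes, all with the larger rise in KO, where 5.52% of all genes were called upward. Noc2l (1.62, SE 0.32, edgeR adjusted p = 0.00841), Mybbp1a (2.27, SE 0.46, adjusted p = 0.00841) and Pes1 (1.29, SE 0.28, adjusted p = 0.00953) led. Heatr1 (2.20, SE 0.50, adjusted p = 0.0101), Gar1 (2.17, SE 0.50, adjusted p = 0.0105) and Ddx21 (1.94, SE 0.45, adjusted p = 0.0123) followed. Myc (2.54, SE 0.86, adjusted p = 0.0597) and Odc1 (1.27, SE 0.51, adjusted p = 0.103) were not called. By role the interaction was called in 7 of 10 small subunit factors, 4 of 10 large subunit factors and both RNA polymerase I subunits. Without WT 24 h replicate 3, the lowest of its group in 18 genes, 0 of the 36 were called, and without KO 24 h replicate 1, 28 were. The count was 9 without WT sham replicate 5 or KO 24 h replicate 4, 11 without WT 24 h replicate 1 or any 1 of KO sham replicates 2 to 4, and 26 without KO sham replicate 5. The share of all genes called in these refits is not given here. Genes lost only without WT 24 h replicate 3 had edgeR adjusted p there of 0.0611 (Mybbp1a, Noc2l) to 0.0964 (Rrp9). Their log2 differences stayed at 1.00 (Pes1) or more whichever library was left out.

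Cell type markers moved with genotype and replicate at 24 h. Against KO sham, 10 of 12 Kupffer cell markers, 7 of 12 sinusoidal endothelial markers and 7 of 12 tested T and NK cell markers fell in KO livers at 24 h, where 12% of all genes fell. The summed Kupffer level was 434 CPM in KO 24 h replicate 1 and 144, 153 and 219 CPM in replicates 2 to 4, against 314, 629 and 350 CPM in the WT 24 h livers. The summed sinusoidal level was 84.2 to 123 CPM in KO and 151 to 355 CPM in WT 24 h livers. The 10 hepatocyte markers summed to 39401 to 83384 CPM in WT and 87709 to 148615 CPM in KO 24 h livers, with the lowest value in WT replicate 3. Against WT at 24 h, 3 of 12 Kupffer and 9 of 12 sinusoidal markers were lower, where 7.5% of all genes were. Of 5 tested cholangiocyte markers 2 were higher than in WT, Sox9 (3.85, SE 0.82, edgeR adjusted p = 0.00344) and Epcam (1.98, SE 0.66, adjusted p = 0.0365). The 7 listed cholangiocyte markers summed to 18.9 CPM in KO 24 h replicate 1 and 65.5, 157.4 and 36.1 CPM in replicates 2 to 4, against 54.9, 17.7 and 54.0 CPM in the WT livers. The stellate cell marker Des was lower than in WT (-3.01, SE 0.68, edgeR adjusted p = 0.00475), 1 of 10. The 10 stellate markers summed to 210, 243, 368 and 343 CPM in KO 24 h replicates 1 to 4. In WT 24 h replicates 1 to 3 the same sum was 136, 250 and 292 CPM. No Kupffer, sinusoidal or hepatocyte marker was at 0 in a 24 h liver, whereas 1, 3, 4 and 3 of the 13 T and NK markers were at 0 in KO 24 h replicates 1 to 4 and none in the WT 24 h livers. The part of these cells in the 24 h results was not tested.

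Other ribosome assembly genes, on lists that leave out the 36, moved the same way in KO livers at 24 h. Against KO sham, 27 of 44 other small subunit factors, 36 of 48 other large subunit factors, 5 of 14 other RNA polymerase I genes and 7 of 9 other snoRNP genes rose, and none fell. Over all genes 15.9% rose. Against WT at 24 h the counts of genes higher in KO were 26, 33, 4 and 7, where 11.1% of all genes were higher. These lists were chosen with earlier results of these data known and are read in the same livers. They are therefore not separate support. Among the leading genes were Nle1, a pre-60S factor (2.54 over WT, SE 0.45, edgeR adjusted p = 0.00116), Polr1e, an RNA polymerase I subunit (1.71, SE 0.37, adjusted p = 0.00384), and Nufip1, a snoRNP assembly factor (1.55, SE 0.32, adjusted p = 0.00302). Of the ribosomal proteins 7 of 79 rose over KO sham, where 15.9% of all genes did, and 0 of 79 were called between the genotypes by edgeR, with 1 at an unadjusted p under 0.05. Their median log2 difference between the genotypes was 0.13.

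Of 9 other polyamine genes 3 were higher and 1 lower in KO than WT livers at 24 h, where 11.1% of all genes were higher and 7.5% lower. Smox, spermine oxidase, was higher by 3.65 (SE 0.61, edgeR adjusted p = 0.000878) and Sat1, the acetylating enzyme of polyamine breakdown, by 2.85 (SE 0.50, adjusted p = 0.00108). Paox, polyamine oxidase, was lower by a log2 difference of -1.62 (SE 0.41, adjusted p = 0.00923). Smox and Sat1 break polyamines down, whereas Odc1 makes them. In the Myc network of 14 genes, 1 was called higher and 1 lower, near the shares of all genes. Fbxw7, which targets Myc for degradation, was higher (0.83, SE 0.29, edgeR adjusted p = 0.0418). Mycn, a Myc paralog, was lower (-2.92, SE 0.78, adjusted p = 0.0118). Of 20 Myc growth targets outside the 36, 3 were higher and 1 lower than in WT, near the 11.1% and 7.5% of all genes, led by Prmt1 (1.56, SE 0.30, adjusted p = 0.00183), an arginine methyltransferase. Of 18 proliferation genes 1 was higher and 2 lower, also near the 11.1% and 7.5% of all genes. The G1/S cyclin Ccne1 was higher (1.73, SE 0.56, edgeR adjusted p = 0.0308). Mcm6 and Mcm5 of the replicative helicase were lower (-1.959, SE 0.65, adjusted p = 0.0354 and -2.22, SE 0.77, adjusted p = 0.0428).

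At 48 h and 7 d no gene of the 36 was called against sham by edgeR. In WT at 48 h, 0 changed where 8.29% of all genes did, with 1 at an unadjusted p under 0.05, and in KO 0 changed where 3% of all genes did, with 0 at that level. At 7 d 0 changed in WT and in KO, where 0% of all genes changed in each, with 1 at an unadjusted p under 0.05 in each. DESeq2 called 0 in these 4 comparisons too. Nhp2 at 0.55 (SE 0.26, edgeR adjusted p = 0.207), Myc at 1.07 (SE 0.57, adjusted p = 0.267) and Gar1 at 0.55 (SE 0.33, adjusted p = 0.327) had the smallest p in WT at 48 h. Myc stood at 3.36, 5.17, 10.3 and 4.23 CPM in WT and 2.86, 12.1, 3.13 and 2.29 CPM in KO livers at 48 h, each with 1 liver apart. Odc1 was 63.9, 71.8, 207 and 84.8 CPM in WT at 48 h, with the same replicate 3 high, and 64.5 to 78.3 CPM in KO. WT 48 h replicate 3 was the highest of its group in 20 of the 36 genes.

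In KO at 48 h the smallest p were those of Mybbp1a at -0.54 (SE 0.31, edgeR adjusted p = 0.487), Nhp2 at 0.46 (SE 0.26, adjusted p = 0.493) and Heatr1 at -0.53 (SE 0.33, adjusted p = 0.555). At 7 d Myc again stood above most sham livers, at 10.01, 16.8 and 5.58 CPM in WT and 19.9, 4.17 and 12.2 CPM in KO. The Myc difference was 1.78 in WT (SE 0.60, unadjusted p = 0.0057, edgeR adjusted p = 0.662) and 1.25 in KO (SE 0.60, adjusted p = 1). Odc1 stood at 85.2, 65.0 and 86.2 CPM in WT and 60.3, 49.9 and 72.7 CPM in KO at 7 d. The next smallest p at 7 d were those of Dkc1 (0.38, SE 0.25, adjusted p = 0.907) and Nop14 (-0.38, SE 0.27, adjusted p = 0.918) in WT, and of Npm1 (-0.47, SE 0.39, adjusted p = 1) and Fbl (0.25, SE 0.22, adjusted p = 1) in KO.

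Between the genotypes no gene of the 36 was called by edgeR outside 24 h. The share of all genes called was 0.276% in sham, 0.116% at 6 h, 0.341% at 48 h and 0.045% at 7 d. At an unadjusted p under 0.05 there were 0, 0, 2 and 0 of the 36, and DESeq2 called 0 in each. At 6 h the median difference was -0.23, and in 10 genes every KO liver lay below every WT liver, which 9.29% of all genes did. Rrp9 (-0.58, SE 0.31, edgeR adjusted p = 0.527), Polr1a (-0.57, SE 0.31, adjusted p = 0.53) and Pes1 (-0.38, SE 0.23, adjusted p = 0.577) had the smallest p there. KO 6 h replicate 3 was the lowest of its group in 26 of the 36 genes.

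At 48 h the median difference was -0.31, and 6 genes lay wholly below WT, as did 4.68% of all genes. Mybbp1a (-0.80, SE 0.32, adjusted p = 0.319), Rrp12 (-1.12, SE 0.46, adjusted p = 0.326) and Rrp1b (-0.92, SE 0.47, adjusted p = 0.471) led. KO 48 h replicate 4 was the lowest in 26 of the 36. In sham livers Dkc1 (0.39, SE 0.22, adjusted p = 0.452), Pes1 (-0.32, SE 0.18, adjusted p = 0.458) and Npm1 (0.60, SE 0.33, adjusted p = 0.462) had the smallest p. At 7 d these were Ncl (0.38, SE 0.34, adjusted p = 1), Noc2l (-0.28, SE 0.27, adjusted p = 1) and Rrs1 (0.36, SE 0.42, adjusted p = 1). In 0 of the 36 genes was the interaction called at 6 h, 48 h and 7 d by edgeR and by DESeq2, where 0% of all genes were called, with 0 at an unadjusted p under 0.05 at each time. The smallest p at 6 h belonged to Gnl3 (-0.84, SE 0.55), Nop16 (-0.39, SE 0.37) and Bysl (-0.39, SE 0.43), each with an edgeR adjusted p of 1. At 48 h they belonged to Gar1 (-0.81, SE 0.46, adjusted p = 0.703), Myc (-1.26, SE 0.80, adjusted p = 0.746) and Rrp12 (-0.85, SE 0.60, adjusted p = 0.771). At 7 d they belonged to Nop10 (-0.38, SE 0.31), Gar1 (-0.48, SE 0.51) and Npm1 (-0.47, SE 0.55), each with an adjusted p of 1.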

How the data were processed

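RNA from whole liver was sequenced in 37 libraries. Per the submitters' processing notes, STAR 2.5.3a, RSEM 1.3.0 and GRCm38 were used; which tool counted, the annotation release and the strand setting are not given in the sources used here. The deposited values are whole numbers per gene; they were taken to be expected counts, since RSEM is named, and used as deposited, though counts made by STAR cannot be told apart from rounded RSEM estimates. Every column matched 1 sample. Of 55487 gene identifiers, 55141 matched GENCODE M21, which gave positions and exon lengths.

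All libraries were fitted in R 4.3.3 with edgeR 4.0.16 (quasi-likelihood, robust): filterByExpr (15564 genes), TMM scaling, 10 groups and sex, with a common biological coefficient of variation of 0.390. The Benjamini-Hochberg adjustment ran across the whole tested table, and a gene was called at an adjusted p below 0.05. SE is that of the log2 difference. Each alternative changed 1 choice: RLE scaling, dropping the filter, the sex term, the females or the 6 h sham livers, fitting only the compared groups, leaving out each library in turn, or DESeq2 1.42.0. The comparisons with the 6 h sham livers as a group of their own were added after the data were seen. The fit was tested on simulated counts with 200 genes changed in the KO 24 h livers. It recovered 84%, 78% and 55% of 4-fold changes for KO against sham, KO against WT and the interaction. Of 2-fold changes it recovered 28%, 14% and 2% in the same order. False calls were 4 of 116, 3 of 95 and 7 of 64. A gene that was not called may thus still differ by 2-fold.

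The 36 genes, gene lists and marker lists were chosen with earlier results of these data known. Myc and Odc1 were named always. In each comparison up to 6 called genes of smallest p were named, and at least 3 where fewer passed, and up to 3 called genes of each other list. Other genes named beside them were chosen after their values were seen. Promoter windows are RefSeq sequences on GRCm38.p6. Tables and figures were made in Python 3.11.15 with pandas 2.3.3, numpy 2.4.6 and matplotlib 3.10.9.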

Additional observations from a re-analysis of the deposited data

Results flagged for a closer look

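Within groups of 4 or 5 livers, 1 liver stood apart from the rest by Dixon's criterion in 19 of the 180 combinations of gene and group tested; chance flags about 1 in 20. KO 24 h replicate 1 was low for Odc1 (111 CPM), Ncl (42.8 CPM), Npm1 (18.8 CPM), Nop14 (11.8 CPM), Wdr43 (6.50 CPM) and Rrp9 (10.02 CPM). WT sham replicate 5, the liver taken at 6 h, was high for Nop58 (31.6 CPM), Nop14 (21.3 CPM), Heatr1 (45.2 CPM), Tsr1 (31.2 CPM), Pes1 (34.7 CPM), Gnl3 (22.9 CPM) and Polr1b (19.9 CPM). KO sham replicate 5, also taken at 6 h, was high for Gar1 (6.84 CPM), Heatr1 (31.1 CPM), Pes1 (32.1 CPM) and Rrp1b (10.3 CPM). In the WT 48 h group, Nop2 was low in replicate 4 (12.4 CPM) and Noc2l high in replicate 3 (33.6 CPM).

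The change from sham at 24 h was larger in KO than in WT for 17 genes by the edgeR interaction test, with log2 differences of 1.45 for Nop56, 2.17 for Gar1, 1.94 for Ddx21, 2.27 for Mybbp1a, 1.56 for Nop14, 1.47 for Wdr75, 2.20 for Heatr1, 1.52 for Utp20 and 1.53 for Rrp9. For Rrp12 it was 2.37, for Noc4l 1.498, for Pes1 1.29, for Wdr12 1.05, for Rrp1b 2.85, for Noc2l 1.62, for Polr1a 1.21 and for Polr1b 1.499.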

How the results depend on the processing

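The number of the 36 genes called at 6 h against sham depended on the settings. For most settings the share of all genes called is not given, so a shift need not be particular to the 36. In WT, DESeq2 called 9, dropping the count filter gave 10, dropping sex from the model 17, the male livers 0, dropping both 6 h sham livers 24, fitting the compared groups alone 0 and taking the 6 h sham liver as sole control 0 (a comparison that called almost no gene at all), and leaving out 1 library gave 0 (without WT 6 h replicate 3) to 21 (without WT sham replicate 5). In KO it was 7, 9, 7, 1, 19, 0 and 0 in the same order, and 1 to 11 with 1 library left out, the highest without KO sham replicate 5. At 24 h, the groups compared alone gave 11 for KO against sham, 0 for KO against WT and 0 for the interaction. With 1 library left out KO against sham gave 18 to 33, KO against WT 14 to 34 and the interaction 0 to 28; males alone gave 11 for the interaction. Without the count filter 1 gene was called in WT at 48 h, WT at 7 d, KO at 7 d and KO against WT at 48 h, and without the 6 h sham livers 1 in WT at 48 h. The cause was not tested. The share of promoter windows with the E-box fell from 20.0% to 3.33% when only bases before the start were read.

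Differences that changed sign were those of Myc in WT at 24 h (-1.328 to 0.05155 with 1 library left out, positive without WT 24 h replicate 3), Myc in WT at 48 h (-0.22 in males alone), Odc1 in WT at 7 d (-0.19 in males alone, -0.03025 to 0.3677 with 1 library left out, negative without WT sham replicate 1) and the 7 d interaction of Npm1 (0.05932 in males alone); none of these was called. RLE scaling kept each count of called genes within 1.5 times. No paired analysis was possible because the labels carry no replicate numbers, and those used here follow the order of the sample records.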
